A study of Rattus norvegicus with 4 samples.

Results

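Adult male rat offspring that had been undernourished before birth and then fed a high-fat diet were compared with offspring that had met neither exposure. The comparison is that of the sample titled HF-fed FR30 (both exposures) with the sample titled control (neither), which are 2 of the 4 samples of the study. The other 2 samples hold the single exposures: HF-fed control is liver of control offspring on a high-fat diet, and FR30 is liver of prenatally undernourished offspring on a standard diet. All groups were livers of male Wistar rats aged 4 months, and each group is represented by 1 sample. The labels write of rats in the plural and do not say how many animals a sample holds. Total RNA was hybridised to Illumina expression BeadArrays, and per the file headers each gene has a signal, a STDEV of that signal and a detection p-value in each sample. The questions are how liver transcript levels differed with both exposures, and whether the combined difference was the sum of the differences seen with each exposure alone.

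The liver takes up, makes, burns and exports fat, converts cholesterol to bile acids, and switches between sugar use and sugar production with feeding and hormones. Dietary fat can change hepatic synthesis of monounsaturated fatty acids and sterols. It can also raise genes of fatty acid uptake and activation through nuclear receptors such as PPAR-alpha. Restriction of food before birth is studied because it is associated with altered metabolic and endocrine regulation in adult life.

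Genes with a detection p-value below 0.05 were called detected. Between 9014 and 9238 of the 21547 named genes were detected per sample, and the summed signal lay between 18782093 and 19066409. All 9 hepatocyte markers on the array were detected in all 4 samples, with log2 differences between HF-fed FR30 and control from -0.43 to 0.26, so the defining transcripts of the labelled tissue were present. The FR30 sample stood apart in its error: 115 of its detected genes had a STDEV above 20% of the signal, against 1, 0 and 0 in the control, HF-fed control and HF-fed FR30 samples. That sample also carried fat and muscle transcripts. The fat marker Fabp4, a fatty acid binding protein, read 247 ± 103, 245 ± 11.8, 3020.1 ± 4928 and 247 ± 3.17 in control, HF-fed control, FR30 and HF-fed FR30. The summed signal of the 7 adipocyte markers on the array was 2919, 3381, 7775 and 3138 in that order, and that of the 8 skeletal muscle markers was 1431, 1377, 2193 and 1387. The adipocyte markers Lep and Retn were detected in none of the samples. The FR30 sample does not enter the difference between HF-fed FR30 and control, but it enters every comparison with the sum of the single differences, where the part of these transcripts was not tested.

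Of 8859 genes detected in both samples, 221 were at least 1.5-fold higher in HF-fed FR30 than in control (2.49%) and 249 were at least 1.5-fold lower (2.81%), 470 in all (5.31%). These shares over all genes are the background for every list count of this comparison below. Another 31 genes detected only in HF-fed FR30 and 33 detected only in control lay past the same fold as bounds. At 2-fold the counts were 73 higher and 56 lower, and the median log2 difference of all 8859 genes was 0.00308. With 1 sample in each group no difference below could be tested, so the text gives values and no p-value. The sources used here do not give over what the STDEV was taken, so it was not used as a spread between animals. Intervals of 2 STDEV around the deposited signals were apart for 202 of the 221 higher and 231 of the 249 lower genes. Because the deposited signals keep their background, differences are given after background correction with an offset of 16, and the plain log2 difference of the deposited signals is given beside it for the main genes. A number given alone beside a gene, in brackets or after "at", is the log2 difference of HF-fed FR30 minus control after this correction. On the deposited signals as they stand 115 genes were 1.5-fold higher and 112 lower. In bulk liver, fewer cells of a type and less RNA per cell cannot be told apart.

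**Figure D1:**
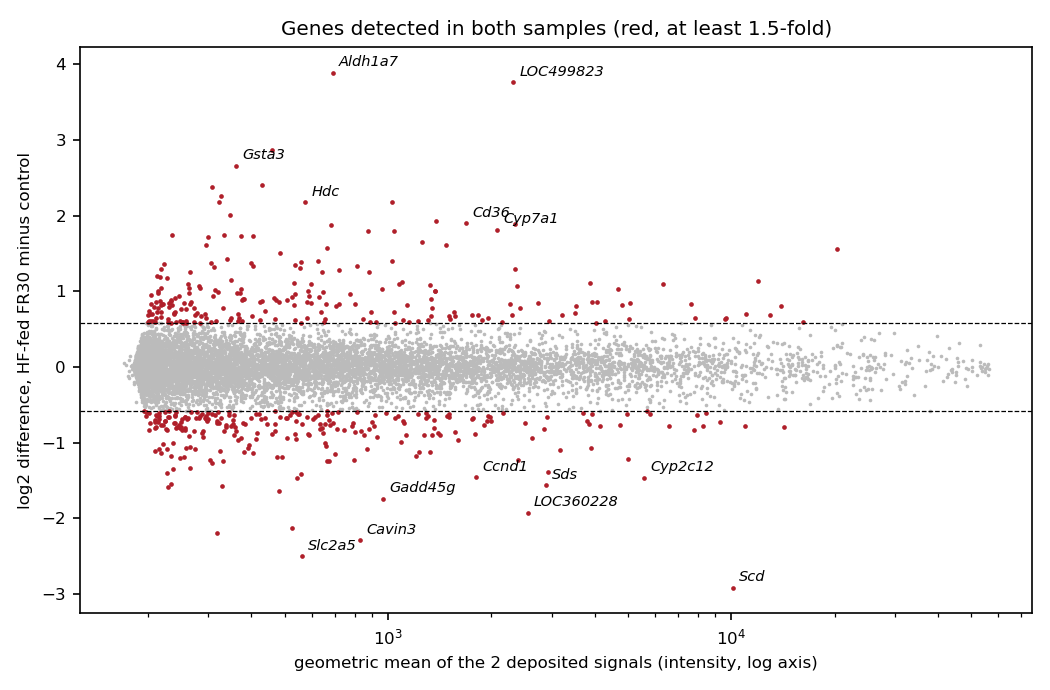
Log2 difference of HF-fed FR30 minus control (vertical axis, background-corrected) against the geometric mean of both deposited signals (horizontal log axis, intensity) for the 8859 genes detected in both samples. Dashed lines mark 1.5-fold; the 470 genes past them are red, with Aldh1a7 (log2 difference 3.89) at the top and Scd (-2.92) at the bottom.

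Genes of fat handling held both the largest decrease and several of the largest increases. Scd, called Scd1 in the file, encodes the desaturase that makes monounsaturated fatty acids. Its signal was 27598 ± 709 in the control sample, 6151 ± 140.3 in the HF-fed control sample, 23229.5 ± 9852 in the FR30 sample and 3718 ± 265 in the HF-fed FR30 sample. It was 7.55-fold lower with both exposures than with neither (log2 difference -2.92; -2.89 on the deposited signals). Both high-fat samples were low and both standard-diet samples high, although the wide STDEV of the FR30 sample leaves its level there imprecise. A dimmer row that the file itself names Scd read 329 in control and 353 in HF-fed FR30 and did not show the difference. Slc2a5, the fructose transporter GLUT5, read 1049 ± 25.1 in the control sample, 493 ± 6.35 in the HF-fed control sample, 507 ± 16.8 in the FR30 sample and 299.9 ± 15.4 in the HF-fed FR30 sample, which is 5.64-fold lower with both exposures. Each single exposure gave about the same lower level, and the combination the lowest.

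Cd36, Acot1 and Acsm2, genes of fatty acid uptake and acyl-CoA metabolism, lay on the other side. Cd36, a fatty acid uptake receptor, read 924 ± 18.8 in the control sample, 3321 ± 111 in the HF-fed control sample, 2392 ± 898 in the FR30 sample and 3076 ± 117 in the HF-fed FR30 sample (3.74-fold higher, log2 difference 1.90). Only the control sample was low, and the FR30 value again has a wide STDEV. Rows annotated as similar to CD36, RGD1562323 and LOC499985, had log2 differences of 1.92 and 1.89, and near-identical copies of this gene may share probe signal. Acot1, a cytosolic acyl-CoA thioesterase, was not detected in control (178 ± 9.26) and read 543 ± 12 in HF-fed control, 186 ± 3.50 in FR30 and 609 ± 30.7 in HF-fed FR30, at least 10.5-fold higher with both exposures after background correction (deposited log2 difference 1.78). Acsm2, a mitochondrial medium-chain acyl-CoA synthetase, was at least 6.76-fold higher (deposited log2 difference 1.33), with signals of 180.3 ± 7.43, 695 ± 58.0, 176 ± 9.29 and 453 ± 17.9 in the same order, and was not detected in either standard-diet sample. The list of fatty acid oxidation genes and PPAR-alpha targets, 30 of them on the array, had few members past the threshold: 2 of the 27 compared were 1.5-fold higher (Cd36 and Vnn1, a pantetheinase, at 0.99), none was lower, and the median was -0.09.

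The promoters of 3 genes are shown because they carry the largest decrease, the largest bound and the largest increase that has a promoter in the RefSeq table used (assembly GRCr8). Each runs 5′ to 3′ from 250 bases before to 50 bases after the annotated start, with matches to the searched motifs in capitals. The Scd promoter lies at chr1:253231682-253231981 on the minus strand, that of Gsta3 at chr9:31154739-31155038 on the plus strand and that of Acot1 at chr6:109367024-109367323 on the plus strand.
Scd: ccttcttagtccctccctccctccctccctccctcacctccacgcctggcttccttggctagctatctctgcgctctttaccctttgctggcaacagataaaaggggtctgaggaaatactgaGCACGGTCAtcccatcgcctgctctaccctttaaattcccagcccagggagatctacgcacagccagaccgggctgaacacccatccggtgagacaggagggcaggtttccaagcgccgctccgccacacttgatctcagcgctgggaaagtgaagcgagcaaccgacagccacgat
Gsta3: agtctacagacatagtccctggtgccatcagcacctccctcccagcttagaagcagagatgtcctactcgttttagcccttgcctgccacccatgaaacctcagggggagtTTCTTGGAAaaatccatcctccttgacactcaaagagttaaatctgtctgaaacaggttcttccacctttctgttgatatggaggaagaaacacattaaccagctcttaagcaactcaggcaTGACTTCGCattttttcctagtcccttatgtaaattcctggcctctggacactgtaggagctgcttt
Acot1: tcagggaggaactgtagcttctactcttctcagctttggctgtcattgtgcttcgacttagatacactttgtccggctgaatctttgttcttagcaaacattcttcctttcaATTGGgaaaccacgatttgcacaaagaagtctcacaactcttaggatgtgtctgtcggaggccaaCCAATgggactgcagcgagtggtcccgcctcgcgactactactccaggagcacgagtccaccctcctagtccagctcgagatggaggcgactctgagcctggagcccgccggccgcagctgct
The capitals mark the letters of an antioxidant response element (TGACNNNGC, read on either strand) at -127 in Scd on the minus strand and at -17 in Gsta3, the letters of a STAT5 site (TTCNNNGAA) at -139 in Gsta3, and CCAAT boxes (CCAAT) at -138 on the minus strand and at -73 in Acot1. Of 33469 rat promoters of this length, 12.1% held the first, 8.87% the second and 37.5% the third. The letters of a sterol regulatory element (TCACNCCAC; 1.12% of promoters), an E-box (CACGTG; 6.42%) and a DR1 element (0.0538%) were not in these 3 windows. Of the 30 genes with the largest differences 17 had a promoter in the table, and the antioxidant response letters were in 5 of them: Gsta3, Cxcl13, Scd, Dact1 and Gadd45g. CCAAT boxes were in 9 of the 17, the E-box letters in 2, the STAT5 letters in 2, and the sterol regulatory and DR1 letters in 0. The motifs do not overlap in these windows, and a match to letters is a description of the sequence only.

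In the list of fatty acid and triglyceride synthesis, 1 of 15 genes compared was 1.5-fold higher and 2 were lower. Me1, malic enzyme, which makes NADPH, read 416 ± 26.6 and 663 ± 8.51 in control and HF-fed FR30. Elovl5, a fatty acid elongase, read 1282 ± 45.1 and 856 ± 25.5 (log2 difference -0.67), and Fads1, the delta-5 desaturase, read 3095 ± 124 and 4064 ± 112 (log2 difference 0.43), below 1.5-fold. Among lipid droplet genes Cidea, which enlarges droplets, was higher with both exposures at 336 ± 11.1 and 699 ± 38.6 (log2 difference 1.51). Cidea is also in the list of brown fat markers, where it was the 1 of 2 compared past 1.5-fold, and it read 1016 ± 946 in the FR30 sample. Mgll, which splits monoacylglycerols, was lower at 673 ± 22.9 and 426 ± 16.2 (-0.89), as was Fitm2, a droplet-forming protein listed as RGD1307696 in the file (1024 ± 26.1 and 627 ± 24.5; -0.86). The single differences of Mgll were -0.15 with diet and -0.70 with FR30, so that its lower level was that of both FR30 samples.

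Several genes of bile acid synthesis were higher with both exposures: 5 of 17 genes compared were at least 1.5-fold higher, beside 2.49% of all genes. None was 1.5-fold lower, and the median log2 difference was 0.28. Cyp7a1, the rate-limiting enzyme of the classic pathway, read 1159 ± 49.9 in the control sample, 4428 ± 52.2 in the HF-fed control sample, 766 ± 16.8 in the FR30 sample and 3708 ± 171 in the HF-fed FR30 sample (3.52-fold higher; log2 difference 1.82, and 1.68 on the deposited signals). It was high in both high-fat samples and lowest in FR30. Cyp7b1, the oxysterol 7-alpha-hydroxylase, read 611 ± 18.4, 807 ± 17.9, 558 ± 25.1 and 1273 ± 55.1 in the order control, HF-fed control, FR30 and HF-fed FR30 (log2 difference 1.25), and was highest with both exposures. Cyp27a1, the sterol 27-hydroxylase of the alternative pathway, read 10261 ± 285, 14377 ± 224, 10149.6 ± 114 and 16396 ± 136 (0.68). Akr1d1, the steroid 5-beta-reductase, also passed 1.5-fold at 0.64. Nr0b2, the repressor SHP that bile acids induce, was higher as well, at 397 ± 8.23, 869 ± 38.7, 374 ± 18.9 and 778 ± 14.9 (1.31). Abcg5, a sterol exporter, read 1008 ± 36.4, 2113 ± 23.0, 1629 ± 59.8 and 1772 ± 84.4 (0.90) and was lowest in control.

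Few genes of cholesterol synthesis and uptake passed the threshold with both exposures. Of 21 genes compared 1 was 1.5-fold higher and 2 were lower, with a median of -0.09. Over the 19 genes detected in all 4 samples the median was -0.12 with both exposures and -0.60 with the high-fat diet alone, where 10 of the 19 were at least 1.5-fold lower (background 3.25%). Tm7sf2, a sterol reductase, read 862 ± 9.68 and 500.4 ± 23.1 in control and HF-fed FR30 (-1.01).

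The largest increase of all was in Aldh1a7, an aldehyde dehydrogenase related to the retinal-oxidising Aldh1a1. Aldh1a7 read 255 ± 26.8 in the control sample, 758 ± 24.6 in the HF-fed control sample, 211 ± 4.59 in the FR30 sample and 1872 ± 152 in the HF-fed FR30 sample. That is 14.8-fold higher with both exposures (log2 difference 3.89; 2.88 on the deposited signals), against 2.40 with the high-fat diet alone and -0.68 with FR30 alone. Aldh1a1 itself read 8075 ± 119, 15053 ± 121, 7512 ± 370.3 and 17657 ± 475 in the same order (1.14), high in both high-fat samples. Gsta3, a glutathione S-transferase listed as Yc2, read 213 ± 6.58 in the control sample, 328 ± 7.88 in the HF-fed control sample, 185 ± 3.49 in the FR30 sample and 613 ± 44.9 in the HF-fed FR30 sample (6.33-fold higher, log2 difference 2.66; 1.52 on the deposited signals). A row that the file names Gsta3 was detected in none of the samples. Nr1i3, the xenobiotic receptor CAR, read 894 ± 43.3 in the control sample, 1020.3 ± 31.8 in the HF-fed control sample, 673 ± 30.8 in the FR30 sample and 2439.9 ± 74.7 in the HF-fed FR30 sample, 3.06-fold higher with both exposures. Neither single exposure gave Nr1i3 a higher level of that size: its differences were 0.23 with diet and -0.50 with FR30. In the list of xenobiotic metabolism, which includes both Aldh1a genes and Nr1i3, 3 of 18 were higher, beside 2.49% of all genes. Ugt2b17, a glucuronosyltransferase, was the 1 lower at -0.77.

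Of 15 compared targets of NRF2, the regulator of the antioxidant response, 6 were at least 1.5-fold higher and 1 lower. The shares over all genes were 2.49% and 2.81%. The median log2 difference of the 15 was 0.47. Nqo1, a quinone reductase, read 1736 ± 28.6, 3236 ± 134, 1800.0 ± 108 and 2972 ± 148 in control, HF-fed control, FR30 and HF-fed FR30 (0.83). Akr7a3, an aflatoxin aldehyde reductase, read 1006 ± 35.0, 2139 ± 17.6, 933 ± 59.4 and 1878 ± 142 (1.0). Both were about as high with diet alone as with both exposures. Ugdh, which supplies glucuronic acid, was at 0.63, and Abcc3, an exporter of conjugates, at 0.94. On the deposited signals Abcc3 was at 0.40, under 1.5-fold, while Akr7a3 and Me1 were at 0.90 and 0.67. Me1 and Gsta3, described above, complete the 6. Hmox1, the heme-degrading oxygenase, read 588 ± 7.83 in the control sample, 5520.3 ± 74.1 in the HF-fed control sample, 685 ± 21.5 in the FR30 sample and 761 ± 18.6 in the HF-fed FR30 sample. It was high in HF-fed control alone, so its combined difference was 0.47 against 3.58 for diet. Of the 15, 12 had a promoter in the table, and 6 of these held the antioxidant response letters, beside 12.1% of all promoters. The list was chosen as targets of NRF2, so this count describes their sequence only.

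**Figure D2:**
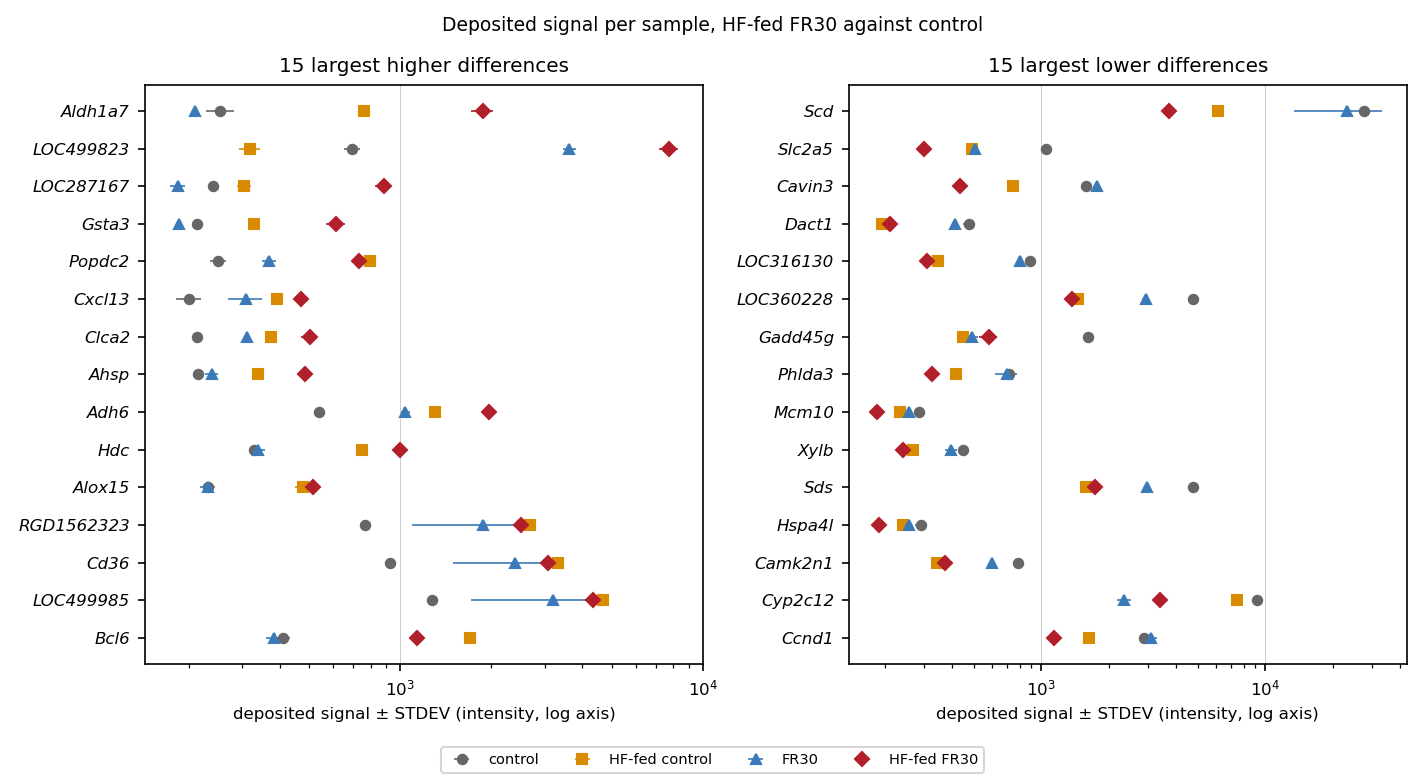
Deposited signal (horizontal log axis, intensity; bars are the deposited STDEV) in each of the 4 samples for the 15 genes with the largest higher (left) and the 15 with the largest lower (right) difference of HF-fed FR30 from control. For Aldh1a7, Hdc and Scd both high-fat samples (squares and diamonds) lie on one side of the standard-diet samples, though apart for Aldh1a7 (758 and 1872). For Cyp2c12 both FR30 samples (triangles and diamonds) lie on one side, at 2347 and 3388 against 9141 and 7481.

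Several genes of glucose production were lower with both exposures. In the list of gluconeogenesis and FoxO targets 1 of 11 was 1.5-fold higher and 4 were lower, beside 2.49% and 2.81% of all genes. The median of the list was -0.43. Sds, serine dehydratase, which feeds serine into glucose production, read 4782 ± 131 in the control sample, 1587 ± 6.72 in the HF-fed control sample, 2973 ± 26.4 in the FR30 sample and 1732 ± 106 in the HF-fed FR30 sample (log2 difference -1.56). Pc, pyruvate carboxylase, read 6125 ± 112, 4216 ± 81.4, 5832 ± 319 and 3663 ± 151 in the same order (-0.77). G6pc1, the catalytic subunit of glucose-6-phosphatase, read 10453 ± 111, 9680.4 ± 133, 12253 ± 95.5 and 6857 ± 169 (-0.61) and was lowest with both exposures, although neither single difference reached 1.5-fold. Got1, an aspartate aminotransferase, was at -0.77, and Pck1, phosphoenolpyruvate carboxykinase, read 48137 ± 2642, 38033 ± 889, 45605 ± 922 and 29947 ± 1078 with a difference of -0.58, just under the threshold, and of -0.68 on the deposited signals, past it. The member that was higher, Igfbp1, encodes an insulin-regulated binding protein and read 779.7 ± 13.5, 2081 ± 49.7, 526 ± 11.4 and 1549.6 ± 78.7 (1.13). Igfbp2, of the same family, was not detected in control (158 ± 5.86) and read 384 ± 7.84 with both exposures, at least 6.6-fold higher (deposited log2 difference 1.28).

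Among glycolysis and glycogen genes 2 of 17 were higher and 3 lower, with a median of -0.24. Pfkfb1, the liver enzyme that sets fructose 2,6-bisphosphate, read 1003 ± 21.1 in the control sample, 1127 ± 11.2 in the HF-fed control sample, 931 ± 71.5 in the FR30 sample and 1875 ± 11.1 in the HF-fed FR30 sample. It was higher with both exposures alone (2.01-fold), with differences of 0.19 for diet and -0.13 for FR30. Pklr, the liver pyruvate kinase, read 1746 ± 86.6 and 1058 ± 18.8 in control and HF-fed FR30 (-0.81), and Eno1, enolase, was at -0.68. Xylb, xylulokinase, was among the largest decreases at 447 ± 14 and 241 ± 14.5 (-1.58).

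Several clock and growth-arrest genes were lower with both exposures. Of 9 clock genes compared 5 were 1.5-fold lower and 1 higher, beside 2.81% and 2.49% of all genes. Their median of -0.64 was the lowest of any pathway list. Bhlhe40, a repressor in the clock loop listed as Bhlhb2, read 1125 ± 32.2 in the control sample, 459.6 ± 2.67 in the HF-fed control sample, 789 ± 24.2 in the FR30 sample and 562 ± 32.1 in the HF-fed FR30 sample (-1.22). Per2, a core repressor, read 1824 ± 59.0, 1699.8 ± 36.1, 1399 ± 50.2 and 1214 ± 22.8 in the same order (-0.65), and Rora, an activator, 1149.8 ± 45.0, 977 ± 18.1, 792 ± 50 and 725 ± 30 (-0.78). Both lay lowest in the FR30 and HF-fed FR30 samples. Nfil3 and Cry1 were at -0.66 and -0.64. Per1 was higher at 0.59, just past the threshold, and at 0.30 on the deposited signals, under it. Nr1d1, which represses Bmal1, was not detected in control and read 368 ± 16.6 in HF-fed FR30, at least 5.02-fold higher after background correction. The labels used here give no time of day at which livers were taken.

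Of 17 immediate early and growth-arrest genes compared 8 were 1.5-fold lower, beside 2.81% of all genes, and none higher. Gadd45g, a stress-induced growth-arrest gene, read 1617 ± 82.9 in the control sample, 449.5 ± 18.5 in the HF-fed control sample, 489 ± 34.6 in the FR30 sample and 582 ± 53.1 in the HF-fed FR30 sample (-1.74). The control sample alone was high, and the other 3 lay together. Btg2, an antiproliferative gene, read 1728 ± 8.37, 878 ± 24.7, 1158 ± 46.1 and 845 ± 8.33 in the same order (-1.17), Jun, a subunit of AP-1, 487 ± 9.04, 302 ± 12.8, 339 ± 12.5 and 298 ± 10.3 (-1.12), and Dusp1, a phosphatase of MAP kinases, 10381 ± 220.0, 4383 ± 140.1, 6937 ± 166 and 5882 ± 231 (-0.84). For all 4 of these genes the control value was the highest. Control enters each difference, so a high value in that sample lowers the single and the combined differences alike. Among cell cycle genes 4 of 10 compared were 1.5-fold lower, beside 2.81% of all genes, and none higher. Ccnd1, cyclin D1, read 2865 ± 17.6 in the control sample, 1641 ± 76.8 in the HF-fed control sample, 3081 ± 221 in the FR30 sample and 1139 ± 29.5 in the HF-fed FR30 sample (2.73-fold lower), and was lower in both high-fat samples. The others were Ccnb2, cyclin B2, Cdc20, an activator of the anaphase-promoting complex, and Mcm6, a subunit of the replicative helicase, at -0.80, -0.60 and -0.60. On the deposited signals these 3 were at -0.34, -0.21 and -0.23, and of the 4 only Ccnd1 (-1.33) stayed past 1.5-fold. Mcm10, a replication factor, read 285 ± 2.80 and 184 ± 4.96 in control and HF-fed FR30, with a difference of -1.59 after background correction and -0.63 on the deposited signals.

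The growth hormone and STAT5 axis held differences in both directions, with 2 of 11 higher and 3 lower. Bcl6, a repressor of STAT5 targets, read 411 ± 21.9 in the control sample, 1696 ± 72.6 in the HF-fed control sample, 382 ± 22.6 in the FR30 sample and 1134 ± 23.6 in the HF-fed FR30 sample (1.88). Socs2, a feedback inhibitor that growth hormone induces, read 661 ± 38.9, 253 ± 6.36, 1079 ± 16.4 and 366 ± 13.7 in the same order (-1.19). Onecut1, the liver factor HNF6, read 3562 ± 107, 1801 ± 62.9, 6013 ± 442 and 1605 ± 21.2 (-1.23). These separated the diets: Bcl6 was high and Socs2 and Onecut1 were low in both high-fat samples. Prlr, the prolactin receptor, read 295 ± 7.15, 809.9 ± 45.0, 502 ± 27.9 and 542 ± 7.76 (1.38). Cyp2c12, a steroid hydroxylase that predominates in female rats, read 9141 ± 171 in the control sample, 7481 ± 47.6 in the HF-fed control sample, 2347 ± 159.9 in the FR30 sample and 3388 ± 205 in the HF-fed FR30 sample (2.75-fold lower with both exposures). It was the one gene of the 15 largest decreases whose FR30 difference (-2.05) was more than 1.5-fold larger than its diet difference (-0.29). Of 3 female-biased genes compared Prlr was higher and Cyp2c12 lower, and the median was 0.44. Of 7 male-biased liver genes none passed 1.5-fold, and Cyp2c11, the main male form, read 40386 ± 288, 31553 ± 741, 38292 ± 1836 and 33131 ± 815 in the same order. Close relatives in the Cyp2c family may share probe signal, so the level of Cyp2c12 in these male livers is uncertain.

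Pericentral genes, which mark hepatocytes around the central vein, were at least 1.5-fold higher in 4 of 11 cases, beside 2.49% of all genes. None was 1.5-fold lower, and the median was 0.39. Of the 11 differences 7 were above 0 and 4 below, the lowest that of Cyp1a2, a cytochrome P450, at -0.51. The summed signal of the list was 91794 in control and 82547 in HF-fed FR30. Slc1a2, a glutamate transporter, read 435 ± 21.3 in the control sample, 699 ± 41.1 in the HF-fed control sample, 371 ± 19.3 in the FR30 sample and 1020.0 ± 16.6 in the HF-fed FR30 sample (1.57). Rhbg, an ammonia channel, read 222 ± 3.09, 260.4 ± 9.17, 261 ± 6.98 and 394 ± 11.6 in the same order (1.62) and was highest with both exposures. Tbx3 and Ahr, both transcription factors, were at 1.19 and 1.1, and on the deposited signals at 0.44 and 0.96. Of 13 periportal genes 2 were lower, Sds and Aldh1b1, a mitochondrial aldehyde dehydrogenase (-0.72), and none was higher.

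In the interferon list 3 of 14 genes were 1.5-fold lower and 1 higher, beside 5.31% of all genes compared in either direction: Oasl, Irf7 and Oas1a were at -1.27, -0.69 and -0.60, and Ifit2 at 0.73. On the deposited signals these were -0.68, -0.52, -0.22 and 0.31, and only Oasl stayed past 1.5-fold. Antigen presentation had 1 of 11 past the threshold (RT1-Ba, a class II chain, at -0.61), yet 10 of the 11 were below 0 and the median was -0.44. Among all genes compared 4371 of 8859 were below 0. Cxcl13, a B cell chemokine, read 200.3 ± 19.1 in the control sample, 391 ± 2.16 in the HF-fed control sample, 309.9 ± 40.8 in the FR30 sample and 470.1 ± 6.37 in the HF-fed FR30 sample (2.38), with only the control sample low. Alox15, a lipoxygenase, read 232 ± 3.63, 479 ± 27.6, 232 ± 13.3 and 517 ± 15.3 in the same order (2.0). LOC360228, annotated as a WDNM1 homolog, read 4759 ± 176, 1463 ± 49.4, 2921 ± 90.0 and 1368 ± 21.1 (-1.92).

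Genes linked to mast cells and to red cells are given with their marker lists. Hdc, the histamine-forming decarboxylase, read 329 ± 7.01 in the control sample, 748 ± 10.1 in the HF-fed control sample, 339.8 ± 18.2 in the FR30 sample and 999.8 ± 28.4 in the HF-fed FR30 sample (4.52-fold higher). The mast cell protease Cma1 went the other way, at 320.1 ± 22.2 in control and not detected in the other 3 samples. It was at least 4.71-fold lower with both exposures after background correction (deposited log2 difference -0.93). Cpa3, another mast cell protease, was detected in control and FR30 only, and Tpsab1, Fcer1a and Kit in none of the samples. The erythroid list had 4 of 5 genes compared at least 1.5-fold higher, beside 2.49% of all genes. Hbb, beta globin, read 10568 ± 133 in the control sample, 17565 ± 152 in the HF-fed control sample, 10912 ± 456 in the FR30 sample and 18345 ± 826 in the HF-fed FR30 sample (0.80), and Ahsp, the alpha globin chaperone listed as Eraf, 214 ± 7.54, 340.3 ± 9.13, 239 ± 11.9 and 483 ± 22.7 in the same order (2.19). LOC287167, annotated as alpha globin, read 241 ± 5.16, 305 ± 16.2, 184 ± 10.7 and 881 ± 53.2 (2.86), and Hba-a2, the bright alpha globin row, 35835 ± 787, 48663 ± 1875, 34166 ± 329 and 44369.8 ± 752 (0.41). The rows of these close relatives may share signal, and they differ in pattern: LOC287167 was high only in HF-fed FR30. Summed over the 7 erythroid markers on the array the signal was 47371, 67446, 46018 and 64656 in the order above, higher in both high-fat samples. Slc4a1 and Epb42, red cell membrane proteins, were detected in none of the samples. The part of blood in the other differences was not tested.

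The rest of the 30 largest differences fall in no list. LOC499823, annotated only as similar to LRRGT00001, read 694 ± 43.0 in the control sample, 319 ± 25.8 in the HF-fed control sample, 3625 ± 174 in the FR30 sample and 7726 ± 535 in the HF-fed FR30 sample (13.6-fold higher), high in both FR30 samples. Popdc2, Clca2 and Adh6, an alcohol dehydrogenase, were higher with each exposure alone and together, with combined differences of 2.41, 2.27 and 2.18. A second, dimmer Clca2 row was not detected. Among the lower genes Cavin3, a caveolar coat protein listed as Prkcdbp, read 1578 ± 12.8 in the control sample, 746 ± 25.6 in the HF-fed control sample, 1769 ± 49.2 in the FR30 sample and 434 ± 18.0 in the HF-fed FR30 sample (-2.29). Dact1, a Wnt pathway regulator, was at -2.20, LOC316130, annotated as similar to mannose-6-phosphate receptor binding protein 1, at -2.13, Phlda3 at -1.64, Hspa4l at -1.54 and Camk2n1, an inhibitor of CaM kinase II, at -1.47. The remaining bounds, after background correction, were Prr15 at least 8.24-fold higher, and Prss32, LOC310926 and Ltc4s, the leukotriene C4 synthase, at least 6.84-, 5.38- and 3.32-fold lower. On the deposited signals the log2 differences of these genes were 1.51, -1.28, -1.10 and -0.73.

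The combined difference was then set against the sum of the single differences, gene by gene, over the 8474 genes detected in all 4 samples. The same control sample enters all 3 differences, so they are not independent, and the counts below are those the comparison itself defines. With the high-fat diet alone 485 of these genes differed by 1.5-fold or more (5.72%), 210 higher (2.48%) and 275 lower (3.25%). With FR30 alone 335 did (3.95%), 156 higher (1.84%) and 179 lower (2.11%), and with both exposures 453 did (5.35%). Of the 207 genes that were higher with both exposures (2.44%), 134 lay within 1.5-fold of the sum, 40 were larger than the sum by more than that and 33 smaller. Their median log2 difference was 0.84 with both exposures, 0.64 with diet alone and 0.13 with FR30 alone, and the median sum was 0.77. Of the 246 that were lower (2.9%), 148 lay within 1.5-fold of the sum, 44 were further from 0 and 54 nearer, with medians of -0.77, -0.55 and -0.30 and a median sum of -0.87. Over all 8474 genes 90.9% lay within 1.5-fold of the sum, against 64.7% and 60.2% of the higher and lower genes, which were chosen on the combined difference itself.

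Some genes kept close to the sum. For Slc2a5 the single differences of -1.37 and -1.30 add to -2.67, beside a combined difference of -2.50. The sum was 1.84 against a combined 2.0 for Alox15 and 1.07 against 1.0 for Akr7a3. For Gadd45g, Cd36, Herpud1, an endoplasmic reticulum stress gene, and Mt1, a metallothionein listed as Mt1a, the combined difference was much smaller than the sum. Mt1 read 11586 ± 287 in the control sample, 53443 ± 776 in the HF-fed control sample, 23957 ± 927 in the FR30 sample and 35761 ± 3083 in the HF-fed FR30 sample, so that single differences of 2.13 and 1.06 stood beside a combined 1.56. For Herpud1 they were 0.84 and 0.75 beside 0.80, so each single difference was close to the combined one. For Gadd45g they were -2.26 and -2.08 beside -1.74, so both were larger in size than the combined one. Control alone was low for Herpud1 and high for Gadd45g. It enters both single differences, so it weighs more in the sum than in the combined difference. An unusual control value and an effect of each exposure cannot be told apart here.

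A departure of 2-fold or more from the sum was found above it for 93 genes (1.1%) and below it for 92 (1.09%), 185 in all (2.18%). Of the 92, 22 had a STDEV above 20% of the signal in the FR30 sample, and without them 70 remained below. None of the 93 had such a STDEV. With the sum taken on the linear scale the counts were 164 above and 69 below, and on the deposited log2 signals 45 and 28. RGD1564649, annotated as similar to ribosomal protein S9, had the largest departure. It read 3019 ± 76.0 in the control sample, 462 ± 4.44 in the HF-fed control sample, 526 ± 39.5 in the FR30 sample and 2775 ± 21.4 in the HF-fed FR30 sample: both single exposures were low and the combination was at the level of control (combined -0.13, sum -6.04). Rps9 itself read 3609.7 ± 85.2, 1679 ± 15.9, 1482 ± 36.4 and 3619 ± 59.6 in the same order, low with both single exposures and high in the other 2 samples, and the rows may share signal. Ugt2b17, 5367 ± 43.2, 1789.6 ± 26.3, 1583 ± 32.9 and 3201 ± 110.2, was likewise lowest with single exposures (sum -3.51, combined -0.77), as was the retinol dehydrogenase Rdh16, listed as Rdh2, at 1588 ± 73.2, 501 ± 31.0, 719 ± 19.9 and 1054 ± 25.2 (sum -3.33, combined -0.67).

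Some of the other departures came mainly from 1 sample. Birc6, an inhibitor of apoptosis, read 1019.7 ± 22.7, 865 ± 35.3, 259.6 ± 26.4 and 1013 ± 19.3 in control, HF-fed control, FR30 and HF-fed FR30, and was low in FR30 only. Cdh17, a cadherin, read 2162 ± 99.0, 1449 ± 54.7, 333 ± 14.8 and 1178 ± 40.1, and Casp12, a caspase of the endoplasmic reticulum, 509.9 ± 7.29, 378 ± 25.4, 218 ± 9.11 and 474 ± 2.62, both lowest in FR30. RT1-A2, a class I antigen, read 4355 ± 55.0, 628 ± 23.6, 4705 ± 82.1 and 3787 ± 209.8 and was low in HF-fed control only. For Birc6, Casp12, RT1-A2, Rps9 and RGD1564649 the combined difference was under 1.2-fold although the sum passed 2-fold, which held for 62 genes in all. On the other side Hmox1 had the largest departure among genes with a STDEV of at most 20% of the signal in every sample (-3.39), where Fabp4, an adipocyte marker at 3020.1 ± 4928 in FR30, is left out (-4.71). It was followed by RGD1562971, annotated as similar to ribosomal protein L21 (-2.56), and Lox, which cross-links collagen. Lox read 2565 ± 58.2 in the control sample, 5496 ± 59.4 in the HF-fed control sample, 4235 ± 209.6 in the FR30 sample and 1789 ± 47.3 in the HF-fed FR30 sample: both single exposures were above control, and the combination was below it (sum 1.88, combined -0.56). Mx2, an interferon-induced gene, read 438 ± 11.3, 531 ± 8.53, 868 ± 27.8 and 418 ± 14.8 in the same order and was high in FR30 only. Per1 and Prlr had departures of -2.19 and -1.96, and LOC691966, annotated as similar to sulfide:quinone oxidoreductase, one of -1.78.

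**Figure D3:**
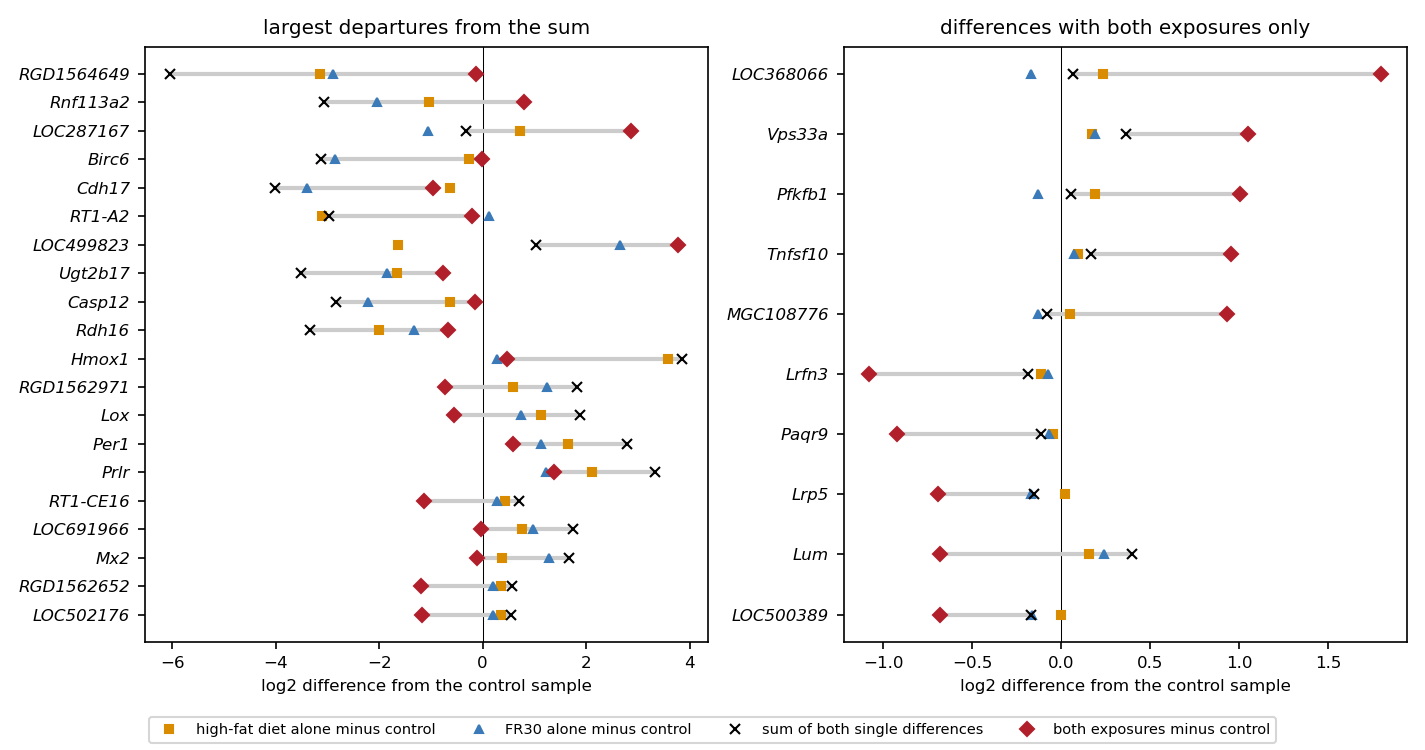
Log2 difference from the control sample (horizontal axis) with the high-fat diet alone (squares), FR30 alone (triangles), their sum (crosses) and both exposures (diamonds); grey lines join the sum to the combined value. Left, the 20 largest departures from the sum among genes with a STDEV of at most 20%, from RGD1564649 (sum -6.04, combined -0.13) to LOC502176 (0.56 and -1.17); right, the 10 largest combined differences among genes whose single differences were both under 1.2-fold.

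Of the 8474 genes detected in all 4 samples, 20 were 1.5-fold higher and 14 were 1.5-fold lower with both exposures, while each exposure alone stayed under 1.2-fold. LOC368066, annotated as similar to indolethylamine N-methyltransferase, read 520.2 ± 40.9 in the control sample, 585 ± 18.9 in the HF-fed control sample, 477 ± 2.23 in the FR30 sample and 1468 ± 33.4 in the HF-fed FR30 sample (3.48-fold higher). Pfkfb1 was described above, and MGC108776, listed as a Snf7 homologue, read 461 ± 11.5, 474 ± 19.6, 434 ± 9.23 and 757 ± 20.3 in the same order (0.93). Vps33a, a vesicle sorting protein, and Tnfsf10, the death ligand TRAIL, were dim: their differences were 1.05 and 0.96 after background correction and 0.39 and 0.34 on the deposited signals. On the lower side Lrfn3, Paqr9, Lrp5, a Wnt co-receptor, Lum, a matrix proteoglycan, and LOC500389 were at -1.08, -0.93, -0.69, -0.68 and -0.68. On the deposited signals they were at -0.40, -0.48, -0.47, -0.24 and -0.32, all under 1.5-fold. Lrp5, the brightest of these, read 503 ± 22.6 in the control sample, 509 ± 25.5 in the HF-fed control sample, 462 ± 36.8 in the FR30 sample and 364 ± 18.8 in the HF-fed FR30 sample, lowest with both exposures. RT1-CE16, a class I antigen, and RGD1562652, annotated as similar to one, were also low only with both exposures, at 253 ± 5.28, 293 ± 19.3, 278 ± 12.1 and 188 ± 3.01 and at 306 ± 6.19, 352 ± 0.86, 333 ± 2.59 and 211 ± 4.03 in the same order. LOC502176, annotated as similar to Ab1-331, had the same order at 274 ± 6.40, 313 ± 14.8, 294 ± 10.2 and 198 ± 1.83. Class I rows are close relatives and may share signal.

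Genes that differed in the same direction by 1.5-fold or more with each exposure alone had their largest combined differences in Popdc2, Cxcl13, Clca2, Adh6 and RGD1562323 on the higher side and in Slc2a5, LOC360228, Gadd45g, Sds and Cyp17a1 on the lower. Adh6 read 540.3 ± 8.67 in the control sample, 1306 ± 3.93 in the HF-fed control sample, 1041 ± 35.6 in the FR30 sample and 1964 ± 45.3 in the HF-fed FR30 sample, with the highest level under both exposures (sum 2.71, combined 2.18). Cyp17a1, the steroid 17-alpha-hydroxylase, read 801 ± 12.7 in the control sample, 368 ± 11.5 in the HF-fed control sample, 525 ± 14 in the FR30 sample and 388 ± 2.42 in the HF-fed FR30 sample (sum -2.33, combined -1.41), with the combination no lower than diet alone.

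By list, the combined median lay nearer to 0 than the median of the per-gene sums for several metabolic groups. Over the genes detected in all 4 samples it was -0.02 against -0.39 for 24 genes of the urea cycle and amino acid catabolism, -0.05 against -0.39 for 13 periportal genes, 0.04 against -0.32 for 18 xenobiotic genes and -0.21 against -0.52 for 17 immediate early genes. For 15 NRF2 targets it was 0.47 against 0.74. Antigen presentation lay further from 0 than the sum, at -0.44 against -0.15 for 11 genes, and bile acid genes lay close to it, at 0.31 against 0.24 for 16. The median sum over all 8474 genes was 0.01. These medians describe the lists in these 4 samples and have no error of their own. The control sample weighs more in the sums than in the combined medians, and its part in these gaps was not tested.

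**Figure D4:**
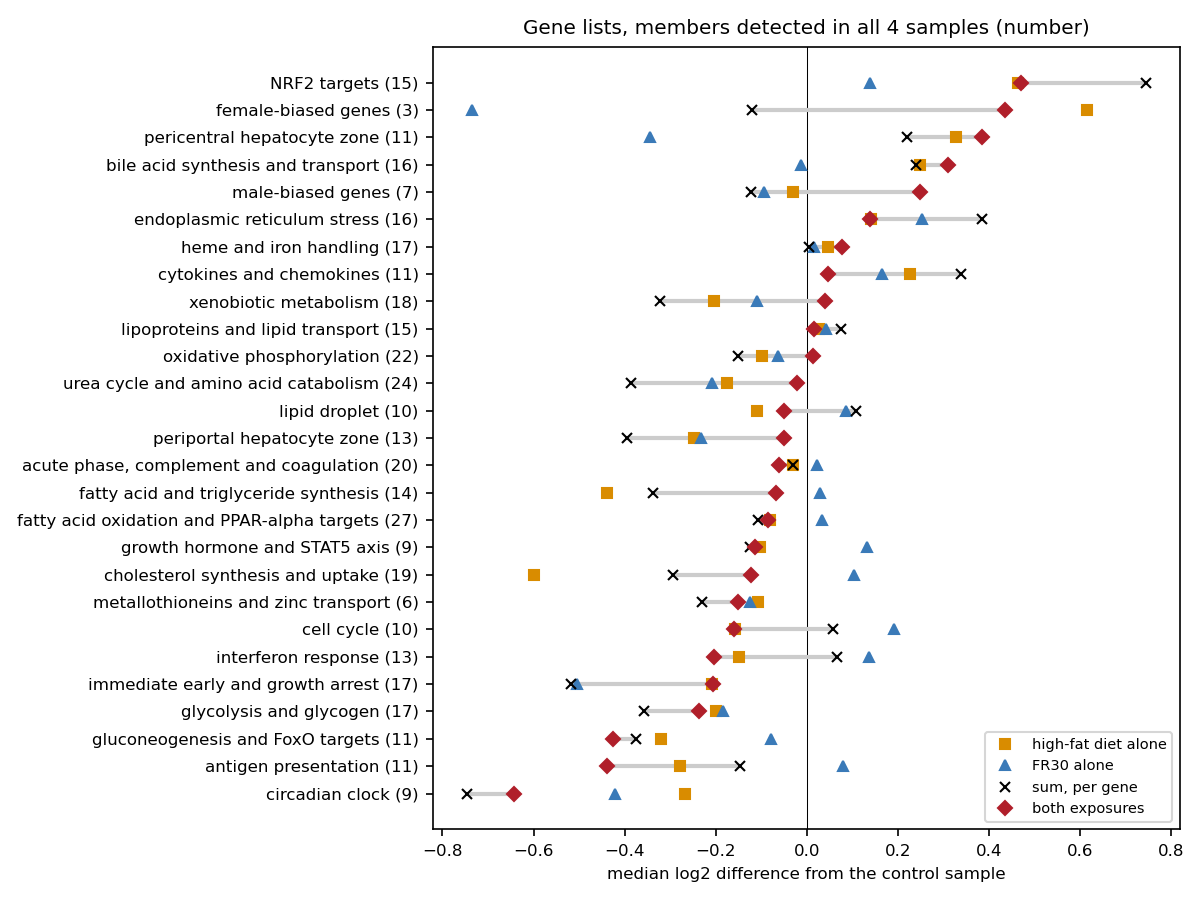
Median log2 difference from the control sample (horizontal axis) for each pathway list, over the members detected in all 4 samples (number in brackets), with the high-fat diet alone (squares), FR30 alone (triangles), the per-gene sum (crosses) and both exposures (diamonds). The combined medians run from -0.64 for the circadian clock to 0.47 for NRF2 targets.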

How the data were processed

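Signal intensities of 4 rat liver samples, 1 per group, were used. Trizol-extracted RNA was labelled as biotinylated cRNA, per the labels' protocols; the submitters' processing notes list GenomeStudio. The authors deposited normalized signal intensity, its STDEV and a detection p-value per gene, per the file headers; the sources used here do not give how they normalized or over what a STDEV was taken. The deposited intensity keeps its background (mean 153 to 154, from the detection p-values of 21209 rows). It was corrected with limma 3.58.1 (R 4.3.3; normal-exponential model, offset 16), quantile-normalized and put on log2; further steps ran in Python 3.11.15 (pandas 2.3.3, numpy 2.4.6, numba 0.67.0, matplotlib 3.10.9). A non-normalized intensity table was also deposited. Its identifiers did not match (Pearson r of log2 signal across rows from 0.0587 to 0.0658), so it was put to genes by row order and used as an alternative only.

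Of 21791 rows, 9908 held a current symbol of the RefSeq table (GRCr8), 4756 took one through a synonym, 7010 stayed as in the file and 117 were unnamed. A synonym was not used where the current symbol also had a row, except for Scd1, Yc2 and Cyp4a10. The brightest row of a gene was kept, which left 21547 genes. Detection p-values were averaged in 582 rows, and 433 genes with such values did not count as detected in both samples. Where a gene was detected in 1 of 2 samples, its fold is a bound, taken against the lowest detected value of the dim sample, or the gene's own value there if higher.

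The departure is the combined difference minus the sum of both single differences on the log2 scale, which is the interaction of diet and prenatal group. Genes are named as the 15 largest combined differences and 4 largest bounds each way, up to 4 members of a list past 1.5-fold, the 10 largest departures each way with a STDEV of at most 20%, and the 5 largest each way that differed with both exposures only or with each exposure, plus 5 whose sum passed 2-fold with a combined difference under 1.2-fold. Other members are given from the lists, and some genes picked in this way are not reported here. The comparison, the members and all 40 lists were chosen with earlier results of these data known. No test was run, with 1 sample per group. The procedure was tested on simulated data: in the simulated combined comparison of 9238 genes, all 50 genes set 2-fold higher and all 50 set 2-fold lower were called, and in the simulated departure 40% and 46% of those set at 2-fold and 100% of those set at 3-fold. The changed genes were drawn only from brighter ones, and no spread between animals was simulated. These rates therefore do not carry over to dim genes or to differences between animals. Alternatives changed the background correction, offset, normalization, detection threshold, filter on STDEV, table, fold and scale of the sum.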

Additional observations from a re-analysis of the deposited data

Results flagged for a closer look

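For 10 of the genes with the largest departures from the sum, the high-fat difference ran in opposite directions in control and in FR30 offspring. Each difference was at least 1.5-fold after background correction. On the deposited signals the difference in control offspring was under 1.5-fold for Cdh17, Casp12 and RGD1562971. So was the difference in FR30 offspring for Rdh16. With 1 sample per group the opposite directions were not tested, and the value given is the departure on the log2 scale. It was 5.91 for RGD1564649, 3.87 for Rnf113a2 (listed as Znf183), 3.05 for Cdh17, 2.75 for LOC499823, 2.74 for Ugt2b17, 2.69 for Casp12 and 2.66 for Rdh16, all lower with the high-fat diet in control and higher with it in FR30 offspring. It was -2.56 for RGD1562971, -2.44 for Lox and -1.78 for LOC691966, which were higher with the high-fat diet in control and lower with it in FR30 offspring. Rnf113a2, a RING finger protein, had signals of 564 ± 29.5 in the control sample, 347 ± 1.82 in the HF-fed control sample, 242 ± 3.16 in the FR30 sample and 886 ± 38.9 in the HF-fed FR30 sample. RGD1562971 read 229.8 ± 7.83, 276 ± 13.3, 354 ± 28.1 and 192 ± 16.3 in the same order and LOC691966 2466 ± 18.9, 4166 ± 19.0, 4734 ± 91.6 and 2436 ± 67.0.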

How the results depend on the processing

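No named gene at least 1.5-fold apart and no list median past 0.2 in size changed sign under the settings tried. On the deposited signals without background correction the counts were 115 higher and 112 lower, the departures 45 above and 28 below the sum, and 7 lists had a median past 0.2 in size against 11 as reported; 79 of 108 values of named genes at 1.5-fold stayed there the same way, since background narrows the differences of dim genes. An offset of 50 gave 59 departures below the sum. At 2-fold the counts were 73 and 56, and at 1.5-fold the departures were 408 and 361. With the sum taken on the linear scale 164 genes lay above it and 69 below. Without a filter on detection 6 lists passed 0.2, and with only genes whose 2-STDEV intervals were apart 21 did, from fewer genes each; the cause of the other shifts was not tested. The non-normalized table gave 204 higher and 240 lower genes; of the genes in both tables, 199 of 210 higher and 229 of 241 lower ones were called in both, and 77 of 88 departures above the sum and 70 of 92 below it. No paired analysis was possible because each group has 1 sample, and for the same reason no sample could be left out. Depth cannot be given for arrays; genes near the background have the least precise differences.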

Other observations

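The counts of the other gene groups stand beside 5.31% of all genes compared that were past 1.5-fold with both exposures. None of 22 subunits of oxidative phosphorylation differed by 1.5-fold, with log2 differences from -0.26 to 0.30, and none of 17 heme and iron genes did. Of 20 acute phase, complement and coagulation genes 1 was higher: A2m, a protease inhibitor of the acute phase in rats, read 432 ± 12.8 in the control sample, 501 ± 6.47 in the HF-fed control sample, 388 ± 32.5 in the FR30 sample and 654 ± 27.7 in the HF-fed FR30 sample (log2 difference 0.81). Of 24 genes of the urea cycle and amino acid catabolism Sds and Got1 were lower and none was higher. Of 15 lipoprotein and lipid transport genes Abcg5 alone was higher. Among 16 endoplasmic reticulum stress genes Herpud1 and Creld2 were higher, at 0.80 and 0.62. Chac1, a stress-induced glutathione-degrading enzyme, was detected in control (259 ± 4.75) and not in HF-fed FR30, at least 2.97-fold lower after background correction. Of 6 metallothionein and zinc transport genes Mt1 was higher and Slc39a4, a zinc importer, lower (846 ± 47.3 and 563 ± 25.5 in control and HF-fed FR30; -0.74).

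Markers of other cells were counted in the same way between HF-fed FR30 and control. None of 7 macrophage, 6 endothelial and 4 lymphocyte markers compared passed 1.5-fold, and none of the neutrophil markers was detected in both samples. Of 9 stellate cell and matrix markers Reln was higher at 1587 ± 58.2 and 2402 ± 52.5 (0.64) and Lum lower at 234 ± 6.54 and 198 ± 5.31 (-0.68). Krt19, a bile duct keratin, was the 1 higher of 5 cholangiocyte markers (0.59, just past the threshold, and 0.28 on the deposited signals). Among cytokines and chemokines Nfkbia, an inhibitor of NF-kappaB, was higher (0.63) and Cxcl10, an interferon-induced chemokine, lower (-0.66). None of the 3 muscle and 4 adipocyte markers compared passed 1.5-fold in this comparison.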
